A study of Mus musculus with 38 samples.

Results

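Messenger RNA bound to polysomes was compared between mouse oocytes at the germinal vesicle (GV) stage and interphase zygotes, using 3 GV polysome libraries (replicates A, B and C) and 3 zygote polysome libraries (replicates B, C and D), which are 6 of the 38 samples of the series. The libraries were chosen by the stage and the gradient fraction in their titles. GV oocytes were fully grown, from ICR females of at least 6 weeks primed with PMSG, were labelled WT, and were held in meiotic prophase with IBMX during isolation and stripped of cumulus cells. Zygotes came from females of that strain given PMSG and hCG and mated overnight, were recovered from the oviduct, and were taken at the pronuclear stage without nocodazole. Cells of both groups were treated with cycloheximide, which holds ribosomes on mRNA, and were lysed and spun through a sucrose gradient. Of 10 gradient fractions the 5 heavier ones were pooled as the polysome sample and the 5 lighter ones as the non-polysome sample. Libraries were made from very little RNA with a SMART-seq kit, and how many animals went into one is not given in the sources used here. The replicates are described as biological, and nothing ties a letter to an animal or a day. The other zygote polysome sample, replicate A, was not analysed here.

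A GV oocyte is arrested in meiotic prophase, carries a large store of maternal mRNA and stops transcription when fully grown. Between this stage and the zygote lie meiotic maturation, fertilization and a wave of maternal mRNA decay, while major transcription from the embryonic genome begins only after the first cleavage. Which mRNAs sit on polysomes therefore reflects both which mRNAs are present and which are recruited to ribosomes, and in a polysome library fewer molecules in the cell and fewer molecules on ribosomes cannot be told apart. Maternal mRNAs with a short poly(A) tail are held inactive, and a cytoplasmic polyadenylation element (CPE) near the 3′ end allows the tail to be lengthened. The library kit primes on poly(A), and the part of tail length in the values of either fraction was not tested. Ribosomal protein mRNAs often begin with a run of pyrimidines after the cap, the 5′ terminal oligopyrimidine (TOP) tract, through which growth signals set their translation.

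Some of the genes described here carry these elements, and examples are shown among ribosomal protein genes and among named genes that changed. Of the 21 ribosomal protein genes that were lower in zygotes (25.9% of 81 tested, against 3.88% of all genes), 15 had a start in RefSeq (GRCm38.p6). Not all of the 15 were considered for display, so the number shown is not a count over them. Shown are 5 whose start opened with C followed by pyrimidines in a run of at least 5 bases. These 5 were chosen for their start after their values had been seen. Their first 30 transcribed bases are given 5′ to 3′ with that run in capitals:
Rpl35 (chr2:39005102-39005131, minus strand): CTCTTTCTCTCgaaccaggctgcttcagcc
Rplp2 (chr7:141447651-141447680, plus strand): CTTTCgccgccggacgccgccgaggtcgca
Rps15a (chr7:118116118-118116147, minus strand): CTTCCCTCgccggtgagtgagtgtttgtga
Rps21 (chr2:180257379-180257408, plus strand): CTCCTgcccaatagtgctgcggaggcacga
Rpl15 (chr14:18270957-18270986, minus strand): CTTCCTTTCCTCTggcggcagccatcaggt

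A start of this kind was present in 24.6% of the 61 ribosomal protein genes with a RefSeq start, against 3.12% of the 5036 protein-coding genes tested that have one. An annotated start can lie a few bases from the cap, so the absence of a run in this window says only that these letters are not there. At the other end of the mRNA, the letters TTTTAT or TTTTAAT were searched on the sense strand in the last 100 bases of the 3′ untranslated region of 1 GENCODE M21 transcript per gene. Not every named gene was considered for display here either. Of those considered that changed, the 4 with the highest FPKM that hold the element are given as 30 bases around it, with each match in capitals:
Zbed3 (chr13:95337806-95337835, plus strand): tccttttttttTTTTAATaaacTTTTATtt
H1foo (chr6:115950157-115950186, plus strand): cgattctgaagcTTTTATtgtctaataagc
Rnf181 (chr6:72359725-72359754, minus strand): aattagaattcTTTTAATagatataaaaaa
Rpl32 (chr6:115805525-115805554, minus strand): cttgtgtgcatgTTTTATgtttaaataaaa

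Zbed3 holds 2 matches, which end 18 and 8 bases before the transcript end, and the first overlaps the polyadenylation hexamer aataaa. The other genes hold 1 match each, at a distance of 57 bases in H1foo, 23 in Rnf181 and 25 in Rpl32. The element was held by 21.6% of the protein-coding genes that were lower in zygotes, by 13.2% of those that were higher and by 18.7% of all 6328 protein-coding genes tested that have a transcript. A match is a description of the sequence and not a measured binding site.

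Values are FPKM, read fragments per kilobase of exon scaled to library size, as normalized and deposited by the authors, with a floor of 0.01 in each library, and changes are differences of log2 FPKM, zygote minus GV. The sum of FPKM was 99308 to 130811 in GV and 88982 to 96766 in zygotes. Across the 7967 genes tested, log2 values of the zygote replicates correlated with an r of 0.956 to 0.961, and those of the GV replicates with an r of 0.769 to 0.889, the lower values all involving GV replicate B. That library also had most genes at the floor, 44.2% of the table against 30.5% to 34.6% in the other GV libraries and 26.2% to 27.3% in zygotes. The median SD of a gene over 3 replicates was 0.73 in GV and 0.23 in zygotes on the log2 scale. Of 15 oocyte and zygote markers, 12 were above 1 FPKM in all 6 libraries (Figla, Nlrp5 and Ddx4 were not), and of the 17 granulosa and cumulus markers in the table none was, with summed values of 0.36 to 0.60 FPKM. Summed markers of sperm and testis stood at 2.45 to 6.76 FPKM, with overlapping groups, and of blood at 0.07 to 3.83, also with overlap. The oviduct list stood at 0.80 to 2.66 FPKM in GV and 3.42 to 4.64 in zygotes, without overlap, and its part in the results was not tested. Nearly all of that sum came from Cdh1 (0.58 to 2.33 FPKM in GV, 2.23 to 2.30 in zygotes) and Krt8 (0.15 to 0.71 and 1.09 to 2.20). The highest value of any other member was 0.055 FPKM (Muc1), and Foxj1 and Cldn3 were at the floor in all 6 libraries.

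At a minimum of 0.1 FPKM, 9985, 8752 and 10257 genes were detected in the GV libraries and 10330, 10271 and 10361 in the zygote libraries. The zygote libraries thus held more detected genes than any GV library, but a two-sided exact permutation test of 3 against 3 cannot go below p = 0.1, which is the value obtained. At a minimum of 10 FPKM the order turned, with 1414, 1390 and 1265 genes in GV and 1197, 1208 and 1264 in zygotes (exact p = 0.1). At 1 FPKM the groups overlapped (exact p = 0.9).

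Genes were called when limma's Benjamini-Hochberg adjusted p was below 0.05 and the log2 change beyond 1. In the fit over all 36 libraries, 447 genes (5.61%) were called, of which 138 (1.73% of the genes tested) were higher and 309 (3.88%) lower in zygotes. This fit shares one estimate of the spread over 12 groups whose median SD runs from 0.23 to 1.64. With only the 6 libraries in the fit, calls covered 31% of the genes, 14.2% in the direction of zygotes and 16.8% in that of GV, and included 408 of the 447. That fit depends on single libraries as well: its 2466 calls became 983, 1101 and 1128 without zygote replicates C, B and D, 1946 without GV replicate A, and 3046 and 2998 without GV replicates B and C. With array weights, which let the spread differ between groups, 15.7% of the genes were higher and 15.5% lower. Quantile normalization gave 17.7%, split into 8.12% and 9.58%. Groups did not overlap for 27% of the genes in the direction of zygotes and for 27.4% in the direction of GV. Without GV replicate B, 225 genes were called (2.82%), 60 higher (0.753%) and 165 lower (2.07%), and without zygote replicate C the number was 236, of which 52 were higher and 184 lower. The number higher was also lower by over 1.5 times without GV replicate A (87), zygote replicate B (64) or zygote replicate D (61), and the lower ones without GV replicate A (205).

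**Figure D1:**
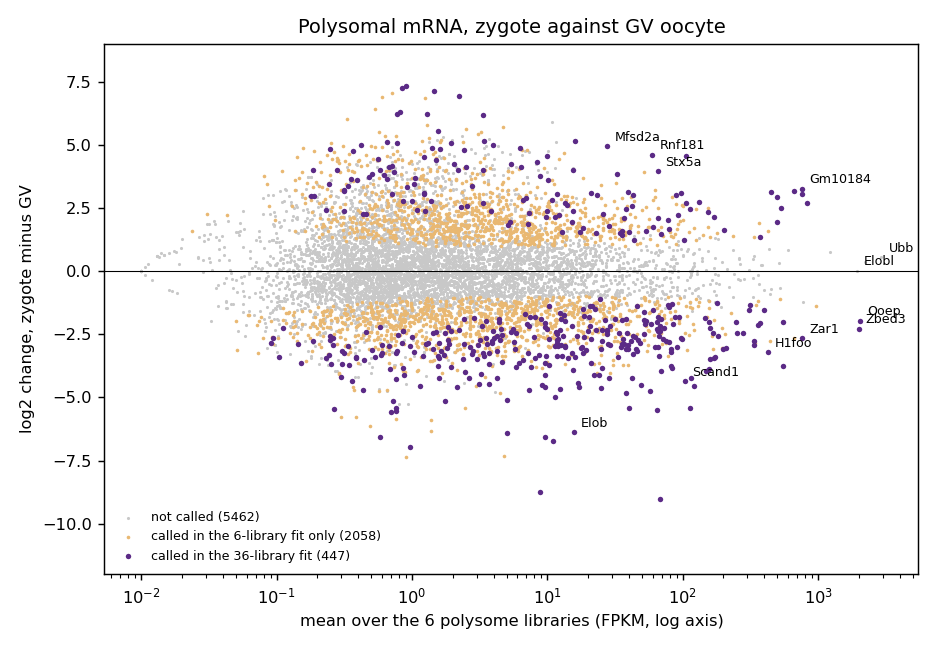
Each point is 1 of the 7967 genes tested, with its mean FPKM over the 6 polysome libraries on a log axis and its log2 change (zygote minus GV); purple points were called in the 36-library fit (447) and orange ones in the 6-library fit but not in the former. Elob lies lowest among the genes labelled, at -6.38, and Mfsd2a highest, at 4.95.

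Protein-coding genes made up 201 of the 309 genes lower in zygotes and 92 of the 138 higher ones. Of all genes tested, 3.88% were lower and 1.73% higher. The annotation classes antisense, lincRNA and TEC contributed 29 of the lower and 27 of the higher genes, 6.97% and 6.49% of 416 tested. Processed pseudogenes contributed 67 of the lower and 18 of the higher genes, which is 7.07% and 1.90% of the 947 tested. Reads of such copies and of their parent genes may be split between them by the mapping, so a value given to 1 ribosomal protein gene or its copy is uncertain.

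Largest rises and falls here are those of protein-coding genes called in both fits, with at least 10 FPKM in the higher group and no overlap. The 12 largest falls included genes for subunits of ubiquitin ligases, ribosomes and the respiratory chain. Elob (chr17:23824738-23829136, minus strand) encodes elongin B, an adaptor of cullin-RING ubiquitin ligases. It had 37.7, 48.3 and 7.23 FPKM in GV replicates A, B and C, and 0.29, 0.31 and 0.26 FPKM in zygote replicates B, C and D. All GV values lay above all zygote values, GV replicate C being the lowest of its group, and the log2 change was -6.38 (SE 0.69, limma adjusted p = 4.68e-07). Its oocyte paralog Elobl, by contrast, stood at 1573 to 2443 FPKM in GV and 1634 to 2192 in zygotes, with a log2 change of 0.01 (SE 0.32, adjusted p = 0.995), so that the groups overlapped. Romo1 (chr2:156144039-156145797, plus strand), a small protein of the mitochondrial inner membrane, had 84.7, 205 and 40.4 FPKM in GV and 4.09, 1.98 and 4.50 in zygotes. It fell by 4.74 on the log2 scale (adjusted p = 1.37e-07), and its groups were far apart. Scand1 (chr2:156311847-156312704, minus strand), a SCAN domain protein, went from 177, 335 and 87.9 FPKM to 9.76, 5.42 and 11.3 FPKM, a log2 change of -4.36 (SE 0.42, adjusted p = 8.29e-08).

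Ptov1, which is linked to cell proliferation, had 110, 95.7 and 75.1 FPKM in GV and 4.12, 3.26 and 4.93 in zygotes, a log2 change of -4.51 (adjusted p = 0.000319), and here GV replicate B was not the highest. The ribosomal stalk protein gene Rplp1 had a change of -4.64, and the ribosomal protein copy Rps12-ps3 and the predicted genes Gm10073 and Gm4950 had changes of -5.43, -4.81 and -4.57, each called in all 6 fits that left out 1 library. Gm4950 is protein-coding in the deposited table and a processed pseudogene in GENCODE M21, so its value is uncertain in the same way as those of other copies. The other 4 of the 12 largest falls were not called in every fit that left out 1 library. Uqcr11, a subunit of respiratory complex III, had a change of -4.50 and lost its call without GV replicate B (adjusted p = 0.0577). Gm1673 (-5.42), Ndufa3 of complex I (-4.97) and the kinase gene Pim3 (-4.60) were called in only 1 of the 6 such fits, with adjusted p up to 0.136, 0.254 and 0.123.

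For the largest rises the zygote replicates lay close to each other. Rnf181 (chr6:72359714-72366956, minus strand), a RING-type ubiquitin ligase, had 6.82, 3.25 and 4.62 FPKM in GV and 112, 107 and 124 in zygotes. The groups were well apart, with a log2 change of 4.61 (SE 0.66, adjusted p = 2.71e-05). Mfsd2a (chr4:122946850-122961188, minus strand), a transporter of lysophospholipids that carry long-chain fatty acids, had 3.22, 0.65 and 2.48 FPKM in GV and 53.5, 57.7 and 49.2 in zygotes. It rose by 4.95 on the log2 scale (SE 1.06, adjusted p = 0.00334), with GV replicate B the lowest value and an adjusted p of 0.0449 without it. Stx5a (chr19:8741413-8756069, plus strand), a SNARE of transport between endoplasmic reticulum and Golgi, had 7.18, 10.4 and 6.49 FPKM in GV and 122, 118 and 128 in zygotes, a change of 3.96 (SE 0.67, adjusted p = 0.00023).

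Hexdc, a hexosaminidase, rose by 3.87, the PDZ and LIM domain gene Pdlim2 by 3.63, Oser1, named for its response to oxidative stress, by 3.12 and the predicted gene Gm10184 by 3.27, all called in the 6 fits without 1 library. Gm10184 was the most abundant of these 12, with 121, 68.1 and 321 FPKM in GV and 1199, 1603 and 1222 in zygotes. Prdx3, a mitochondrial peroxidase (4.25, adjusted p up to 0.315), Elp2 of the Elongator complex (4.14, up to 0.198) and Fdft1, the squalene synthase (3.04, up to 0.164), were called with all libraries but in none of the fits without 1 of them. In the 6-library fit all 12 rises and all 12 falls were called, as the rule for naming them required.

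**Figure D2:**
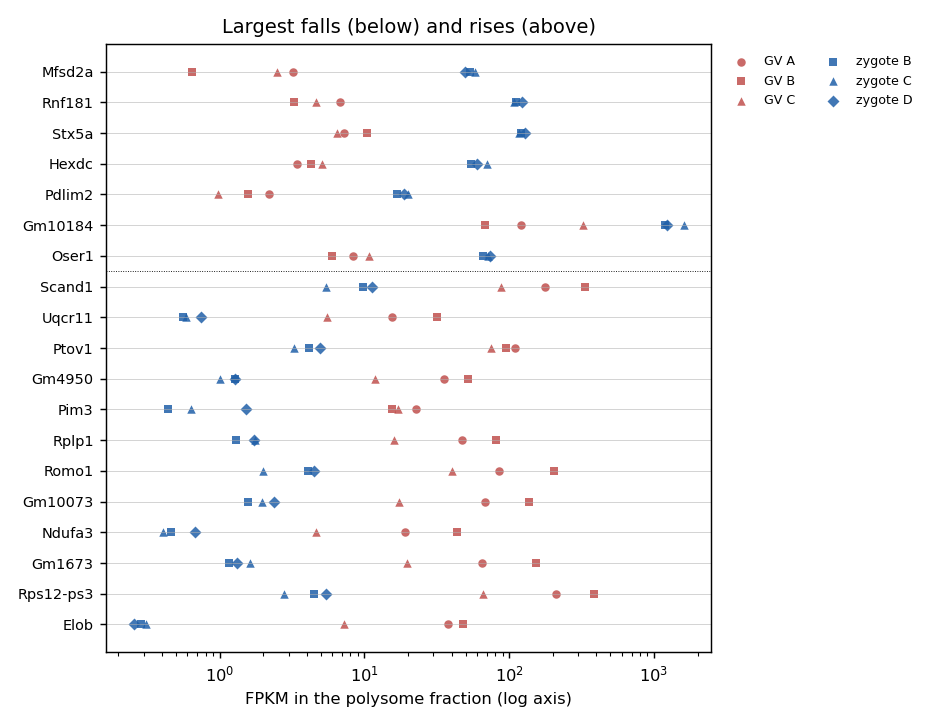
FPKM on a log axis in each of the 3 GV (red) and 3 zygote (blue) polysome libraries, for those of the largest rises (above the dotted line) and falls (below) that were called in at least 1 of the 6 fits without 1 library, the marker shape giving the replicate letter. Zygote points sit close together, and GV points spread more widely, with replicate B highest and C lowest in most of the falls.

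In polysomes of MII oocytes, which lie between GV oocytes and zygotes in development, the mean FPKM of all 12 large rises was already nearer to the zygote than to the GV value on the log2 scale or beyond it, for example 103 FPKM for Stx5a and 52.4 for Rnf181. Of the 12 large falls, 8 had an MII mean nearer to GV and 4 nearer to zygotes. Elob stood at 0.68 FPKM in MII and Scand1 at 50.9. Over all genes called, the MII mean was nearer to or beyond the zygote value for 47.1% and 25.4% of the 138 higher genes, and for 31.4% and 18.4% of the 309 lower ones. These positions are a description and were not tested.

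Ribosomal proteins of the cytosol held the largest number of called genes among the lists. Of 81 tested genes 61 were below 0, the median change was -1.23 against 0.01 for all genes, and 21 (25.9%) were lower and 1 higher by the test, where 3.88% and 1.73% of all genes were. The share of all FPKM taken by the list was 0.68%, 0.87% and 0.43% in GV and 0.30%, 0.34% and 0.34% in zygotes. Every GV library was thus above every zygote library, with replicate C closest to them. Rpl41, a very short protein of the large subunit, had 78.0, 142 and 22.5 FPKM in GV and 2.51, 3.49 and 4.49 in zygotes. It fell by 4.21 (SE 0.51, adjusted p = 3.17e-06), while Rps14 fell by 2.89 (adjusted p = 1.96e-05) and Rpl32 by 2.46 (adjusted p = 8.75e-05).

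The genes shown above with a pyrimidine start fell by 3.62 (Rpl35), 3.61 (Rplp2), 2.87 (Rps15a), 2.57 (Rps21) and 2.22 (Rpl15). Rps21 and Rpl15 lost their calls without GV replicate B (adjusted p = 0.239 and 0.0607), and Rps21 was not called in the 6-library fit. Rpl35 had 41.6, 65.0 and 10.8 FPKM in GV and 1.87, 2.58 and 3.22 in zygotes. Rplp0, the stalk base protein, was not called. It had 85.4, 108 and 49.3 FPKM in GV and 73.6, 77.7 and 81.4 in zygotes, with overlapping groups and a change of 0.01 (SE 0.32). The single member called higher was Rpl10l, a retrogene copy of Rpl10 known from the testis, listed at the floor of 0.01 FPKM in each GV library and at 2.01, 0.77 and 2.61 FPKM in zygotes, a call that was lost without GV replicate B (adjusted p = 0.143). Lower members numbered 10 without GV replicate B (12.3%, against 2.07% of all genes) and 11 without zygote replicate C (13.6%, against 2.31%). They numbered 13 without GV replicate A (16%, against 2.57%) and 14 without zygote replicate B (17.3%, against 2.72%). In the 6-library fit 34 were lower (42%, against 16.8%) and 5 higher (6.17%, against 14.2%).

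Subunits of oxidative phosphorylation encoded in the nucleus showed the same direction. Of 76 tested, 17 (22.4%, against 3.88% of all genes) were lower and none higher, with a median of -0.73, and with the 6 libraries alone 24 were lower (31.6%, against 16.8%) and 4 higher (5.26%, against 14.2%). The share of FPKM was 1.18%, 1.75% and 0.81% in GV and 0.55%, 0.55% and 0.57% in zygotes, again without overlap. Cox8a, a subunit of cytochrome c oxidase, had 300, 629 and 143 FPKM in GV and 38.8, 26.8 and 43.1 in zygotes, a change of -3.08 (SE 0.40, adjusted p = 7.48e-06). Atp5b, the catalytic subunit of ATP synthase, had 147, 120 and 145 FPKM in GV and 34.1, 30.1 and 33.2 in zygotes, a change of -2.08 (SE 0.39, adjusted p = 0.000812). Its GV values lay close together, unlike those of Cox8a. Uqcrq of complex III fell by 2.75 (adjusted p = 0.000329), and Cox6b2 had a change of -2.36, a call that was lost without GV replicate B (adjusted p = 0.0656). In the opposite direction, Atp5a1, the partner of Atp5b in the same enzyme, had 14.5, 15.9 and 18.4 FPKM in GV and 56.4, 52.2 and 46.1 in zygotes, a change of 1.67 (SE 1.16, adjusted p = 0.53) that did not pass over 36 libraries but did in the 6-library fit, with array weights and with quantile normalization. Without GV replicate B, 8 members were lower (10.5%, against 2.07% of all genes).

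Mitochondrial ribosomal proteins gave another count, and the difference between the lists was not tested. Of 73 tested, none was called in either direction in the 36-library fit, and the median was -0.26. Without GV replicate C 3 were lower (4.11%, against 4.12% of all genes). In the 6-library fit 13 were higher (17.8%, against 14.2% of all genes) and 14 lower (19.2%, against 16.8%). With 1 FPKM added, 2 were higher (2.74%, against 7.48% of all genes) and 14 lower (19.2%, against 8.89%). For 41.1% all GV values lay above all zygote values, against 27.4% of all genes. Mrpl34, the most abundant, had 140, 312 and 57.0 FPKM in GV and 48.1, 55.2 and 67.3 in zygotes, with overlapping groups (change -1.27, adjusted p = 0.0744). Of 26 genes of mitochondrial import 1 was higher (3.85%, against 1.73% of all genes) and none lower, and with the 6 libraries alone 4 were higher (15.4%, against 14.2%) and 6 lower (23.1%, against 16.8%). The gene called over 36 libraries was the channel subunit Timm17a (change 1.97, adjusted p = 0.0197), which was called in 2 of the 6 fits without 1 library (adjusted p up to 0.112). The most abundant members not called, Timm8b and Timm8a2, had changes of -2.34 and -2.06 that were called in the 6-library fit and not in the 36-library fit (adjusted p = 0.221 and 0.704).

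**Figure D3:**
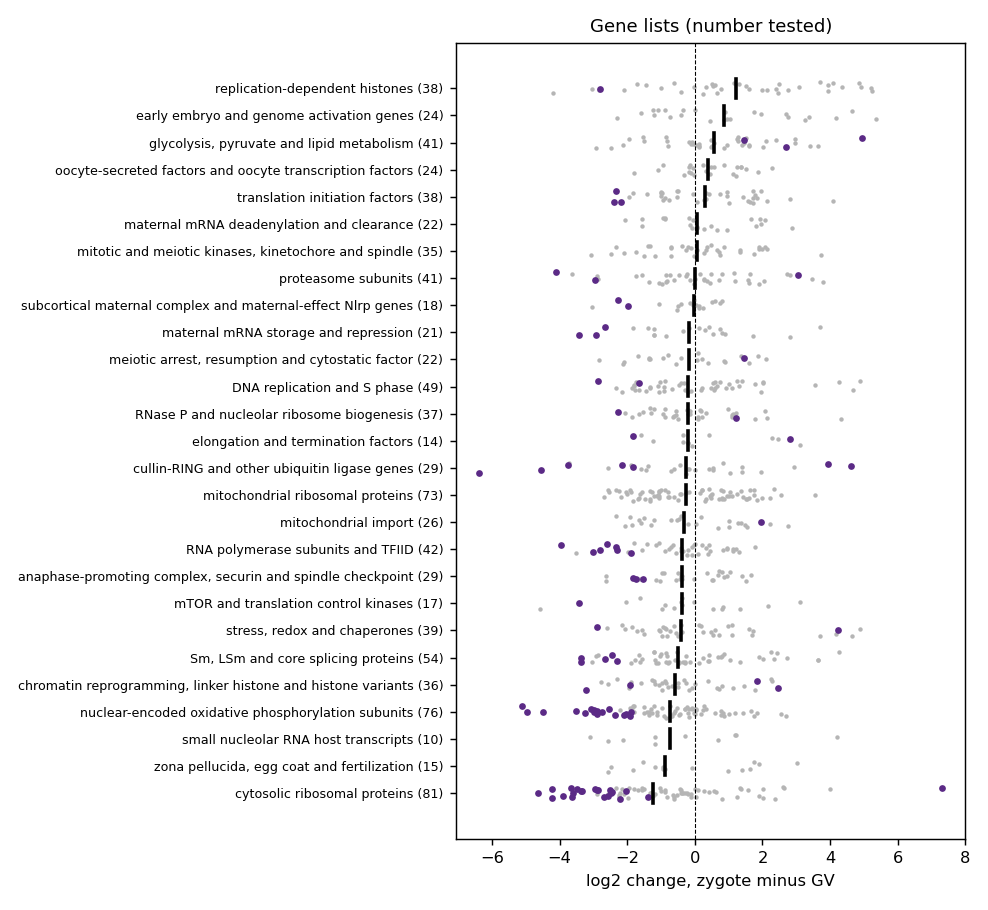
Log2 change (zygote minus GV) of each tested member of the 27 gene lists, called members in purple and larger, with the list's median as a black bar and the number tested in brackets; the dashed line is the median of all genes. Cytosolic ribosomal proteins (22) and oxidative phosphorylation subunits (17) hold the largest numbers of called members, all but 1 of them on the side of the GV oocyte.

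Of 38 initiation factors 3 were lower (7.89%, against 3.88% of all genes) and none higher, while the 6-library fit had the opposite balance, with 9 higher (23.7%, against 14.2%) and 4 lower (10.5%, against 16.8%). Their median was 0.29, which became 0.01 without GV replicate B and -0.19 with quantile normalization. Eif3i, a subunit of the eIF3 scaffold, had 34.6, 33.6 and 32.7 FPKM in GV and 6.46, 5.93 and 6.92 in zygotes. Its values were tight in both groups, and it fell by 2.39 (SE 0.52, adjusted p = 0.00373). Eif3k, of the same complex, had a change of -2.33, not called without GV replicate B (adjusted p = 0.0692), and Eif2s2, the beta subunit of eIF2, one of -2.18, called in 1 of the 6 fits without 1 library (adjusted p up to 0.239). The start-codon factor Eif1 had 208, 227 and 265 FPKM in GV and 113, 115 and 137 in zygotes, a change of -0.94 (adjusted p = 0.0173) that is under the fold threshold, whereas its paralog Eif1b had a change of 0.27 (adjusted p = 0.913).

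Among 14 elongation and termination factors 1 was higher and 1 lower (7.14% each, against 1.73% and 3.88% of all genes). Eef1a1, which brings aminoacyl-tRNA to the ribosome, had 1.55, 3.32 and 3.72 FPKM in GV and 17.0, 21.3 and 18.2 in zygotes, a change of 2.81 (adjusted p = 0.0328, up to 0.154 without 1 library). Tpt1, a translationally controlled protein, had a change of -1.83 (adjusted p = 0.018, up to 0.107). Eef2, the translocation factor, was at 37.2 to 42.7 FPKM in GV and 33.8 to 38.1 in zygotes, with a change of -0.19 (SE 0.62). In the list of mTOR and translation control kinases, 1 of 17 was called and was lower (5.88%, against 3.88% of all genes), and with the 6 libraries alone 4 were lower (23.5%, against 16.8%) and 3 higher (17.6%, against 14.2%). The gene called over 36 libraries was the kinase gene Akt1, with 15.1, 11.5 and 18.2 FPKM in GV and 1.22, 1.33 and 1.55 in zygotes. The groups were far apart (change -3.43, SE 1.02, adjusted p = 0.0436), but the gene was called in none of the fits without 1 library (adjusted p up to 0.135). Eef2k, the kinase of Eef2, had 2.46, 1.66 and 2.73 FPKM in GV and 12.5, 8.60 and 9.53 in zygotes, a change of 2.18 that was called in the 6-library fit, with array weights and with quantile normalization but not over 36 libraries (adjusted p = 0.374 in the latter).

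The list of RNA polymerase subunits and TFIID also holds Gtf2h5 of TFIIH. It had 7 of 42 members lower (16.7%, against 3.88% of all genes) and none higher, with a median of -0.38. With the 6 libraries alone 10 were lower (23.8%, against 16.8%) and 2 higher (4.76%, against 14.2%). Polr2j, a small core subunit of RNA polymerase II, had 138, 186 and 64.8 FPKM in GV and 7.73, 5.33 and 10.8 in zygotes. It fell by 3.96 (SE 0.42, adjusted p = 4.28e-07). Taf10, a TFIID and SAGA subunit, fell by 3.02 (adjusted p = 1.67e-05), while Polr2i (-2.33) and the TFIIH subunit Gtf2h5 (-2.29) lost their calls without GV replicate B (adjusted p = 0.0942 and 0.0919). Without that library 4 members were called lower (9.52%, against 2.07% of all genes). Polr2g, another subunit of the enzyme, had 31.8, 49.6 and 20.3 FPKM in GV and 32.5, 31.6 and 37.3 in zygotes, with overlapping groups.

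Of 54 Sm, LSm and core splicing proteins 5 were lower (9.26%, against 3.88% of all genes) and none higher, and these counts were equal without GV replicate B, where 2.07% of all genes were lower. The 6-library fit had 12 lower (22.2%, against 16.8%) and 4 higher (7.41%, against 14.2%). Sf3b5 had 55.6, 103 and 41.5 FPKM in GV and 9.94, 11.6 and 12.3 in zygotes (change -2.46, adjusted p = 0.000319). Lsm7, Snrpf and Snrpe, members of the small rings that bind U-rich RNA, fell by 3.37, 2.67 and 2.30. The splicing regulator Srsf2 had 51.3, 44.7 and 89.0 FPKM in GV and 103, 105 and 112 in zygotes. Its change of 0.85 did not pass over 36 libraries (adjusted p = 0.242), but the gene was called with quantile normalization (change 1.33). Of 37 genes of RNase P and nucleolar ribosome biogenesis 1 was lower (2.7%, against 3.88% of all genes) and 1 higher (2.7%, against 1.73%). In the 6-library fit 2 were lower (5.41%, against 16.8%) and 3 higher (8.11%, against 14.2%). Nop10, a protein of box H/ACA particles, fell by 2.27 (adjusted p = 0.000162), and Imp4 had a change of 1.22, called in none of the fits without 1 library (adjusted p up to 0.181).

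The ubiquitin ligase list of 29 genes held calls in both directions, 5 lower (17.2%, against 3.88% of all genes) and 2 higher (6.90%, against 1.73%). In the 6-library fit 10 were lower (34.5%, against 16.8%) and 3 higher (10.3%, against 14.2%). Besides Elob and Rnf181, Fbxl6, an F-box substrate adaptor, had 136, 224 and 102 FPKM in GV and 10.8, 8.91 and 13.0 in zygotes, a change of -3.76 (SE 0.36, adjusted p = 8.29e-08). Rbx1, the RING subunit shared by cullin ligases, fell by 2.15 (adjusted p = 0.000448), and Ube2s, the enzyme that extends chains for the anaphase-promoting complex, fell by 1.83 (adjusted p = 0.00368). Ubb, one of the genes for ubiquitin itself, had 2077, 2897 and 2193 FPKM in GV and 2935, 3590 and 3935 in zygotes, a change of 0.55 that did not pass (adjusted p = 0.378). Of 41 proteasome subunits 2 were lower (4.88%, against 3.88% of all genes) and 1 higher (2.44%, against 1.73%), and the median was near 0. In the 6-library fit 11 were higher (26.8%, against 14.2%) and 7 lower (17.1%, against 16.8%). Psmb3 and Psmb6 of the core particle fell by 4.12 (adjusted p = 4.4e-06) and 2.94 (adjusted p = 7.8e-05), and Psmb7, at 0.09 to 0.27 FPKM in GV and a mean of 1.25 in zygotes, had a change of 3.06, called in 4 of the 6 fits without 1 library (adjusted p up to 0.0749).

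Abundant maternal mRNAs were among the genes that fell. Zbed3 (chr13:95323612-95337841, plus strand), a component of the subcortical maternal complex, had 3403, 2971 and 3528 FPKM in GV and 692, 608 and 751 in zygotes. It fell by 2.27 (SE 0.42, adjusted p = 0.000658), with both groups tight. Ooep (chr9:78376109-78378725, minus strand), of the same complex, had 3479, 3758 and 2497 FPKM in GV and 669, 847 and 969 in zygotes, a change of -1.97 (SE 0.42, adjusted p = 0.00297). The list these belong to took 6.90%, 5.84% and 7.63% of all FPKM in GV and 2.41%, 2.30% and 2.52% in zygotes. Over 36 libraries these 2 of its 18 tested members were lower (11.1%, against 3.88% of all genes) and none higher (against 1.73%). In the 6-library fit 3 were lower (16.7%, against 16.8%) and none higher (against 14.2%). Without Ooep and Zbed3 the list took 1.02%, 0.693% and 1.56% in GV and 0.88%, 0.714% and 0.741% in zygotes, with overlap. The median change of all 18 members was -0.04, with 8 above 0 and 10 below. Khdc3 had 464, 328 and 256 FPKM in GV and 43.8, 39.0 and 41.7 in zygotes, groups far apart, and was called in the 6-library fit and with array weights but not over 36 libraries (change -3.03, SE 1.60, adjusted p = 0.352 in the latter).

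Among 21 genes of mRNA storage and repression 3 were lower (14.3%, against 3.88% of all genes) and none higher, and in the 6-library fit 4 were lower (19%, against 16.8%) and 3 higher (14.3%, against 14.2%). Zar1 (chr5:72576806-72581254, minus strand), an RNA-binding factor of oocytes, had 1407, 1470 and 1087 FPKM in GV and 225, 186 and 213 in zygotes. Its groups were far apart, and it was called in all 6 fits without 1 library, with an adjusted p of at most 0.0482. Dppa5a, a KH domain protein, had 781, 784 and 240 FPKM in GV and 67.6, 71.1 and 69.5 in zygotes, a change of -2.93 (adjusted p = 2.57e-05). Ythdc1, a nuclear reader of methylated adenosine, was low throughout, at 0.37 to 2.07 FPKM in GV and 0.04 to 0.12 in zygotes (change -3.42), and it lost its call without GV replicate B (adjusted p = 0.0746) or zygote replicate C. Eif4e1b, an oocyte form of the cap-binding protein, had 17.0, 21.4 and 9.06 FPKM in GV and 100.5, 104 and 109 in zygotes, and was called in the 6-library fit, with array weights and with quantile normalization but not over 36 libraries (change 2.81, SE 0.98, adjusted p = 0.0985 in the latter). None of 22 genes of deadenylation and clearance was called over 36 libraries, and 3 were higher and 3 lower in the 6-library fit (13.6% each, against 14.2% and 16.8% of all genes).

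Chromatin genes had a median of -0.59, which became -0.36 without GV replicate C and -1.03 with quantile normalization, with 24 of 36 tested below 0. H1foo (chr6:115944938-115950236, plus strand), the oocyte linker histone, had 632, 544 and 1143 FPKM in GV and 68.6, 85.9 and 84.6 in zygotes, with GV replicate C the highest. In this list 2 genes were lower (5.56%, against 3.88% of all genes) and 2 higher (5.56%, against 1.73%), and 7 were lower (19.4%, against 16.8%) and 4 higher (11.1%, against 14.2%) in the 6-library fit. For 17 genes all GV values lay above all zygote values (47.2%, against 27.4% of all genes). The reverse held for 6 of the 36, a smaller share than the 27% of all genes for which it did. Zfp57, a zinc finger protein that protects imprints, had 32.9, 18.7 and 63.1 FPKM in GV and 185, 177 and 203 in zygotes (change 2.47, adjusted p = 0.0316), and Npm2, a histone chaperone of the oocyte, had 2.78, 3.11 and 3.53 FPKM in GV and 9.84, 11.9 and 12.3 in zygotes (change 1.85, adjusted p = 0.0442). Zfp57 was called in 1 and Npm2 in none of the 6 fits without 1 library (adjusted p up to 0.212 and 0.15). The histone variant gene H2afj had a change of -1.92, called in 1 such fit (up to 0.266). Dppa3 and H3f3b did not pass, with changes of -0.50 and 0.00.

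Replication-dependent histone genes had a median of 1.22, which became 0.65 without GV replicate C, with 27 of 38 tested genes above 0. Over 36 libraries 1 was called, and it was lower (2.63%, against 3.88% of all genes), with none higher (against 1.73%). In the 6-library fit 5 were higher (13.2%, against 14.2%) and 3 lower (7.89%, against 16.8%). With array weights 12 were higher (31.6%, against 15.7%) and 3 lower (7.89%, against 15.5%). The gene called over 36 libraries was Hist1h2ap, with 104, 292 and 34.4 FPKM in GV and 10.6, 14.9 and 18.7 in zygotes (change -2.82, adjusted p = 0.000703). Hist2h2aa1 pointed the other way, with 36.7, 77.6 and 18.3 FPKM in GV and 198, 214 and 207 in zygotes, and was called in the 6-library fit and with array weights but not over 36 libraries (change 2.47, SE 1.56). Their mRNAs mostly end in a stem-loop and not in a poly(A) tail, and the library kit primes on poly(A), so the values cover only the tailed part. Copies in these clusters are near-identical, which makes values for single genes uncertain.

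Among cell cycle genes, 1 of 22 genes of meiotic arrest and resumption was higher (4.55%, against 1.73% of all genes), and 3 of 29 of the anaphase-promoting complex and spindle checkpoint (10.3%, against 3.88%) and 2 of 49 of DNA replication (4.08%) were lower. With the 6 libraries alone the checkpoint list had 4 lower (13.8%, against 16.8%) and 2 higher (6.90%, against 14.2%), and the replication list 12 lower (24.5%) and 7 higher (14.3%). In the 6-library fit 5 of the 22 meiotic genes were higher (22.7%, against 14.2%) and 6 lower (27.3%, against 16.8%). Ccnb1, the cyclin of M-phase entry, had 32.8, 31.6 and 47.8 FPKM in GV and 121, 86.6 and 97.0 in zygotes, so that the groups did not overlap (change 1.45, SE 0.42, adjusted p = 0.039), and it was called in 1 of the 6 fits without 1 library (up to 0.168). Ccna2, the cyclin of S phase and mitosis, had 17.4, 14.6 and 24.7 FPKM in GV and 5.90, 6.19 and 5.69 in zygotes (change -1.64, adjusted p = 0.0275, up to 0.1). Securin, Pttg1, which guards sister chromatid cohesion, had 408, 1028 and 367 FPKM in GV and 259, 105 and 232 in zygotes, a change of -1.54 that was lost without GV replicate B (adjusted p = 0.147) or zygote replicate C. Anapc11, the RING subunit of the anaphase-promoting complex, had a change of -1.73 (adjusted p = 0.0459, up to 0.329). Neither Pttg1 nor Anapc11 was called in the 6-library fit (adjusted p = 0.0714 and 0.0639). Dbf4, the activator of a replication kinase, had a change of -2.88 (adjusted p = 0.0133, up to 0.0704). None of 35 genes of mitotic kinases, kinetochore and spindle was called over 36 libraries, where 1.73% and 3.88% of all genes were higher and lower. In the 6-library fit 5 were higher (14.3%, against 14.2%) and 8 lower (22.9%, against 16.8%). The tubulin gene Tubb4b had 256.5, 105 and 135 FPKM in GV and 535, 570 and 611 in zygotes. It was called in the 6-library fit, with array weights and with quantile normalization but not over 36 libraries (change 1.89, adjusted p = 0.157 in the latter). Mos, the kinase that sets the metaphase II arrest, had 481, 837 and 478 FPKM in GV and 70.6, 87.9 and 87.0 in zygotes, groups far apart, and passed in the 6-library fit and with array weights but not over 36 libraries (change -2.83, SE 1.44, adjusted p = 0.326 in the latter).

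The list of glycolysis, pyruvate and lipid metabolism, which also holds the transporter gene Slc6a9, had 41 genes tested. Of these 3 were higher (7.32%, against 1.73% of all genes) and none lower, with a median of 0.55 (1.11 without GV replicate C). The fit with 6 libraries had 15 higher (36.6%, against 14.2%) and 4 lower (9.76%, against 16.8%). The 3 called over 36 libraries were Mfsd2a, Slc6a9, a glycine transporter used for volume control in early embryos, and Pkm, pyruvate kinase. Slc6a9 had 4.45, 4.22 and 2.42 FPKM in GV and 22.6, 24.6 and 22.6 in zygotes (change 2.70, adjusted p = 0.0349), and Pkm 20.8, 21.8 and 15.6 FPKM in GV and 50.9, 55.0 and 50.5 in zygotes (change 1.44, adjusted p = 0.0413). Both were called in none of the fits without 1 library (adjusted p up to 0.121 and 0.147), and in each of these fits Mfsd2a was the member called. G6pdx, the entry enzyme of the pentose phosphate pathway, had 18.6 to 19.1 FPKM in GV and 129 to 159 in zygotes. It was called in the 6-library fit, with array weights and with quantile normalization but not over 36 libraries (change 2.95, adjusted p = 0.0864 in the latter). The list took 0.43%, 0.40% and 0.54% of FPKM in GV and 1.04%, 0.983% and 0.998% in zygotes, so every zygote library was above every GV library.

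Genes of the egg coat and of oocyte secretion were not called over 36 libraries. Of 15 genes of the egg coat and fertilization, 4 were higher (26.7%, against 14.2% of all genes) and 5 lower (33.3%, against 16.8%) in the 6-library fit. Groups did not overlap for 6 in each direction (40%, against 27% of all genes for higher and 27.4% for lower). The list's 2 most abundant members tested fell in that fit. Zp1 had 380, 315 and 160 FPKM in GV and 51.7, 38.0 and 47.8 in zygotes, and Zp3 371, 423 and 251 FPKM in GV and 54.6, 59.2 and 68.2 in zygotes. Both code for zona pellucida glycoproteins, did not overlap between groups and were called in the 6-library fit, with array weights and with quantile normalization but not over 36 libraries (changes -2.56 and -2.49, adjusted p = 0.0662 and 0.103 in the latter). Gdf9, the growth factor by which oocytes act on granulosa cells, had 677, 704 and 751 FPKM in GV and 364, 304 and 329 in zygotes, a change of -1.10 (SE 0.73) that was called in the 6-library fit and with array weights. It goes against the balance of its list of 24 oocyte-secreted and oocyte transcription factors, whose median was 0.40. In the 6-library fit 7 of them were higher (29.2%, against 14.2% of all genes) and 2 lower (8.33%, against 16.8%), and groups did not overlap for 11 higher and 2 lower ones, where 27% and 27.4% of all genes did not overlap. Among 24 early embryo genes none was called over 36 libraries, and 3 were higher and 3 lower in the 6-library fit (12.5% each, against 14.2% and 16.8% of all genes). Tcstv1 had 190, 268 and 151 FPKM in GV and 46.1, 34.7 and 39.3 in zygotes (change -2.31, SE 1.53), and was called in the 6-library fit (adjusted p = 0.00299). In the stress list 1 of 39 genes was lower (2.56%, against 3.88% of all genes) and 1 higher (2.56%, against 1.73%) over 36 libraries. In the 6-library fit 8 were lower (20.5%, against 16.8%) and 4 higher (10.3%, against 14.2%). The glutathione peroxidase Gpx1 had 62.6, 88.0 and 45.1 FPKM in GV and 10.0, 6.65 and 9.13 in zygotes and fell by 2.89 (adjusted p = 9.33e-05). Prdx3, described above, was the member called higher over 36 libraries. None of 10 small nucleolar RNA host transcripts was called over 36 libraries, where 1.73% and 3.88% of all genes were higher and lower. In the 6-library fit 2 of them were lower (20%, against 16.8%) and none higher (against 14.2%).

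The change differed with transcript length, taken from 1 GENCODE M21 transcript per gene. The lengths behind the deposited FPKM may come from another annotation and were not compared with these. The 126 tested protein-coding genes with a transcript under 600 nucleotides had a median change of -1.35, those of 600 to 1000 nucleotides -0.50 and those of 1000 to 1500 nucleotides -0.07, while the 3 longer classes lay at 0.24, 0.19 and 0.12. Of the shortest class 24.6% were called lower and none higher over 36 libraries, against 3.14% and 1.44% of all protein-coding genes tested. In the 6-library fit 37.3% were lower and 6.35% higher, against 16.3% and 15.2%. Ribosomal proteins (median transcript 860 nucleotides) and oxidative phosphorylation subunits (850 nucleotides) are among the short ones, and protein-coding genes called lower had a median transcript length of 1246 nucleotides against 2489 for those called higher. Without the genes of the ribosomal, translation factor and respiratory lists, the medians of the 2 shortest classes were -0.73 and -0.47. The share of FPKM in transcripts under 600 nucleotides was 3.66%, 6.14% and 2.18% in GV and 1.64%, 1.71% and 1.91% in zygotes, highest in GV replicate B. Without that library the shortest class had a median of -0.95, and the 3 longer classes lay at 0.05, -0.03 and -0.06. The part of transcript length and of this library in the results on these lists was not tested.

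**Figure D4:**
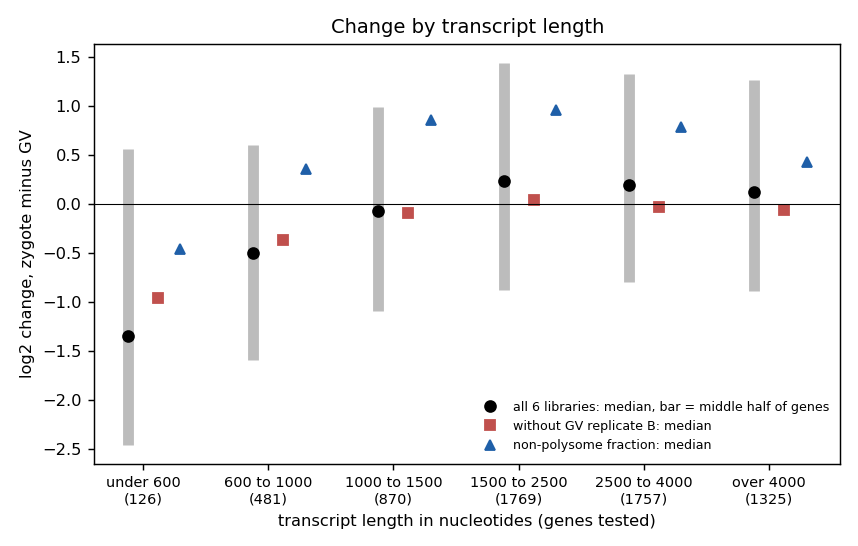
Median log2 change (zygote minus GV) of protein-coding genes by transcript length, with all 6 libraries (black, bar from the lower to the upper quartile), without GV replicate B (red squares) and in the non-polysome fraction (blue triangles). The class under 600 nucleotides lies lowest in all 3, at -1.35, -0.95 and -0.46.

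Within classes of similar length, genes with the CPE letters had lower medians than genes without them up to 1000 nucleotides (-1.21 for 66 genes against -0.53 for 541) and from 1000 to 2000 nucleotides (-0.30 for 339 against 0.11 for 1501). From 2000 to 4000 nucleotides the medians were 0.11 and 0.28, and over 4000 nucleotides the order turned (0.20 and 0.11). Without GV replicate B the medians were -1.01 and -0.43 up to 1000 nucleotides and -0.48 and 0.02 from 1000 to 2000. They were -0.05 and 0.05 from 2000 to 4000 nucleotides and 0.07 and -0.09 over 4000. These are descriptions over genes, with no test.

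The question whether a change was particular to polysomes was addressed with the 3 GV and 3 zygote libraries of the non-polysome fraction. There, 1109 genes (13.9%) were called over 36 libraries, 889 higher (11.2%) and 220 lower (2.76%) in zygotes, and the median change of all genes was 0.65. Of the 126 named genes, 112 had the same sign in both fractions, and of the 72 called in polysomes 70 did. The same share over all genes tested was not determined, so these counts do not show whether the named genes differ from the rest. The difference of the changes was called for a single gene (0.0126%), the processed pseudogene Gm9035, and 479 genes had an unadjusted p under 0.05. In a fit over the 12 GV and zygote libraries alone, 43 genes (0.54%) were called, 7 (0.0879%) with a polysome change above and 36 (0.452%) with one below that of the non-polysome fraction. Of those 36 genes, 12 are listed at the floor in all 3 GV libraries of the non-polysome fraction and 21 have a mean of at most 0.05 FPKM there, while none of the 7 has. The balance depended on the scaling, since over 36 libraries the genes called were 3 above and 1 below with quantile normalization, and 5 above and 7 below with 1 FPKM added. Polysome and non-polysome samples of one replicate come from one gradient, and with the gradient as a block over 36 libraries limma called 0 genes, Gm9035 included (523 with an unadjusted p under 0.05). The 12-library fit had no such block, so its 43 calls and their p-values do not take the shared gradient into account. A difference of changes is read against the median of -0.85 for all genes, which was -0.05 after quantile normalization.

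Ooep, Zbed3, Ptov1, Mos, Ldhb and Npm2 were among the 43. For Ooep the non-polysome fraction held 1690 ± 200 FPKM in GV oocytes (SD, n = 3, as for all values of this kind here) and 1520 ± 101 FPKM in zygotes, a change of -0.15 against -1.97 in polysomes (adjusted p of the difference 0.0159 in the 12-library fit and 0.581 over 36 libraries, limma). Zbed3 changed by -0.73 there against -2.27 in polysomes (adjusted p = 0.0289 and 0.754), and Ptov1 by -2.03 against -4.51 (0.0282 and 0.812). Mos lay on the other side. Non-polysome values of Mos were 2709 ± 167 FPKM in GV oocytes and 77.4 ± 6.17 FPKM in zygotes. Its change there was -5.13 against -2.83 in polysomes (adjusted p of the difference 0.00893 in the 12-library fit and 0.96 over 36 libraries). Ldhb, a lactate dehydrogenase subunit, had opposite signs, -0.90 in the non-polysome fraction and 0.49 in polysomes (0.0149 and 0.727). For Npm2 the non-polysome fraction had 0.45 ± 0.21 FPKM in GV and 19.1 ± 0.65 in zygotes, a change of 5.52 against 1.85 (0.0108 and 0.148). Ccnb1 had signs that differed as well, with -1.01 in the non-polysome fraction and 1.45 in polysomes, and the difference passed in neither fit (0.0592 and 0.17).

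**Figure D5:**
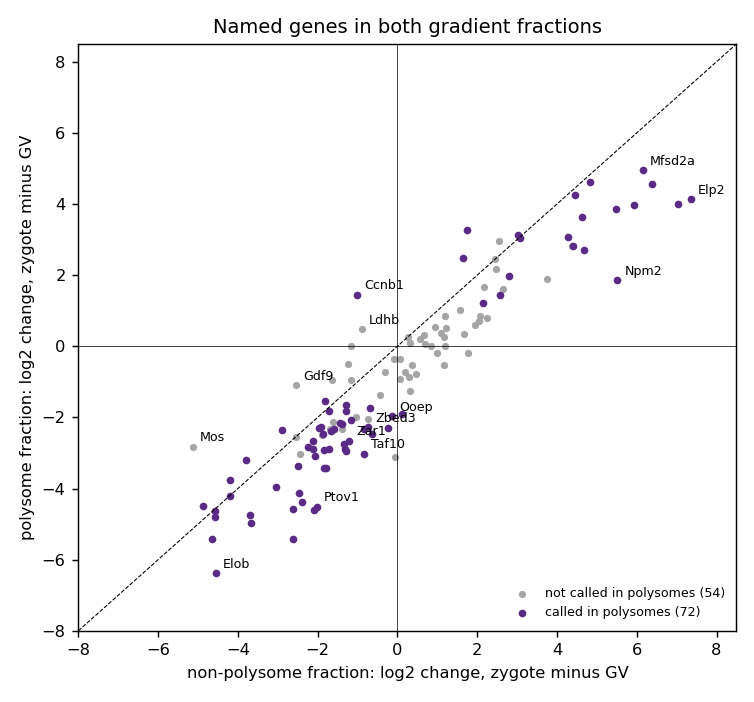
Log2 change (zygote minus GV) of the 126 named genes in the non-polysome fraction (horizontal) and in polysomes (vertical), purple where called in polysomes, with the dashed line at equal change. Most points lie below the line, while Mos, Ccnb1 and Ldhb are among those above it.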

How the data were processed

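Per the labels and the study's methods, the authors trimmed reads with Trim Galore 0.4.1, mapped them to GRCm38 with STAR 2.5.3a, quantified genes in Partek and deposited normalized FPKM for 23125 genes in 36 libraries. Depth is unknown, since whole reads could not be recovered from the FPKM, so no counting error is given. Columns were matched to the 38 samples by title, and 2 zygote samples without a column were not analysed here. Deposited FPKM were put on the log2 scale without a pseudocount, and limma 3.58.1 (R 4.3.3, empirical Bayes with trend) estimated 12 group means over 36 libraries. A gene was tested where its geometric mean reached 0.1 FPKM, which left 7967. Tests are two-sided. The p-values measure only the spread between these samples. The script was tested on simulated data. The comparison, gene lists and members were chosen with earlier results of these data known.

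Named genes were the 12 strongest rises and 12 strongest falls of protein-coding genes called over 36 and over 6 libraries, given at least 10 FPKM in the higher group and no overlap. In each list they were up to 4 called members and up to 2 others with the highest FPKM, and any member at the floor in 1 group. For the fractions, genes called in both tests were planned. Since only 1 gene was called in the difference, those described were chosen after seeing the values. Leaving out each library was tried for the lists after the data were seen. Transcripts and sequences came from GENCODE M21 and RefSeq (GRCm38.p6). Table symbols turned into dates were matched by position. Not every gene the rule names is reported here.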

Additional observations from a re-analysis of the deposited data

Results flagged for a closer look

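The change of Gm9035, a processed pseudogene, differed between the gradient fractions by a test of the difference itself in limma over 36 libraries. In polysomes it had 6.04, 2.80 and 2.53 FPKM in GV replicates A, B and C and 11.2, 12.4 and 12.6 FPKM in zygote replicates B, C and D. All 3 GV libraries of the non-polysome fraction list it at 0.01 FPKM, the floor, while zygotes had 15.7 ± 1.52 FPKM there (SD, n = 3). The polysome change minus the non-polysome change was -8.82 on the log2 scale (SE 1.42, adjusted p = 0.00791), a value that depends on the floor and is no bound. Polysome and non-polysome samples of one replicate come from the same gradient, and with the gradient as a block this gene was not called. Reads of this copy and of its parent gene may be split by the mapping.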

How the results depend on the processing

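The number of genes called (447, of them 138 higher and 309 lower in zygotes) depended on the fit. It was 2466 (1128 and 1338) with the 6 libraries only, 1021 (452 and 569) with the 18 polysome libraries, 2482 (1247 and 1235) with array weights per group, 888 (390 and 498) and 1304 (596 and 708) with 0.1 and 1 FPKM added, 672 (335 and 337) with no minimum, 254 (72 and 182) with protein-coding genes only and 1410 (647 and 763) with quantile normalization, where 45.9% of the calls were higher in zygotes in place of 30.9%. Leaving out each library gave 225 to 445 calls, 52 to 117 of them higher and 165 to 328 lower. Residuals of GV and zygote libraries with the same letter had an r of -0.02 for B and 0.06 for C, against -0.07 to 0.06 for different letters. With 3 libraries per group this cannot settle whether the letters pair the samples. With the letter as a replicate block 350 genes were called, 84 higher and 266 lower. The difference between the fractions was called for 0 genes with a gradient block (limma, 523 genes with an unadjusted p under 0.05), 1 with the replicate block, 4 with quantile normalization, 12 with 1 FPKM added, 43 in the 12-library fit and 0 to 27 without single libraries. The difference in genes detected per library, 656 more in zygotes at 0.1 FPKM, turned to -133 at 10 FPKM. No named gene changed sign past the threshold under any of the 13 alternatives, and 28 lost their call without GV replicate B. The cause of these changes was not tested, and the unknown depth limits all low values.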
